A study of Rattus norvegicus with 6 samples.

Results

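Circadian clock genes were examined in rat heart muscle as a set of 10 genes taken by name: Arntl, Clock, Per1, Per2, Per3, Cry1, Cry2, Nr1d1, Nr1d2 and Dbp. All 10 were found among the 32623 genes of the deposited table, each in a single row, and all 10 were among the 13964 genes with enough expression to be tested. Bulk RNA sequencing had been performed on myocardial tissue of 6 wild-type rats, 3 with a sham operation and 3 in which the left anterior descending coronary artery was tied, both labelled 30 min. All rats were described as male, and the labels of all 6 samples carry 1 account of anesthesia, ventilation and opening of the left chest, without saying which of these steps the sham rats underwent. The study's methods describe release of the ligature and reperfusion for its injury model, whereas the labels of these samples name only ischemia and the time. Strain, age, the part of the heart taken and the hour of the day at which each heart was collected are not given in the sources used here. The question asked of the clock genes was whether the groups differed in clock phase, meaning the stage of the daily cycle at which a tissue stood.

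The clock is a feedback loop that runs in nearly every cell. BMAL1, the product of Arntl, pairs with CLOCK and switches on genes that carry E-box sequences, among them the Per and Cry genes, Nr1d1, Nr1d2 and Dbp. The PER and CRY proteins then block the activators, and the REV-ERB receptors encoded by Nr1d1 and Nr1d2 repress Arntl through sites called ROREs. Dbp encodes a transcription factor that acts on D-box sequences and passes the rhythm to other genes. In tissues with a running clock Arntl is high when Nr1d1 and Dbp are low, and the loop sets daily rhythms of metabolism and ion channels in heart muscle. Per1 and Per2 also respond directly to stress hormones and to cyclic AMP signals.

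The sites through which these factors act could be looked up in the RefSeq promoter windows of the rat genome GRCr8, which run from 250 bases before to 50 bases after an annotated start. Of the 10 genes, 9 had at least 1 window, with 11 windows in all because Clock and Nr1d1 have a pair each. Both strands were searched for the E-box CACGTG, the variant E'-box CACGTT, the D-box TTATGTAA or TTACGTAA, the RORE core TAGGTCA or TGGGTCA, and the cyclic AMP element TGACGTCA. Matches stood in 5 of the 11 windows. The 4 windows that show each kind of match are given 5′ to 3′ along the gene's strand with the matched letters in capitals. Arntl, the target of the REV-ERB receptors, lies at chr1:176766078-176766377 on the plus strand and its RORE core begins 16 bases before the start. Per2, at chr9:99496944-99497243 on the minus strand, holds a D-box 192 bases and an E'-box 62 bases before the start, which do not overlap. The first window of Nr1d1, at chr10:84231763-84232062 on the minus strand, holds an E'-box on the opposite strand, so that its capitals are the reverse complement, and the second, at chr10:84229405-84229704 on the minus strand, an E-box.
Arntl: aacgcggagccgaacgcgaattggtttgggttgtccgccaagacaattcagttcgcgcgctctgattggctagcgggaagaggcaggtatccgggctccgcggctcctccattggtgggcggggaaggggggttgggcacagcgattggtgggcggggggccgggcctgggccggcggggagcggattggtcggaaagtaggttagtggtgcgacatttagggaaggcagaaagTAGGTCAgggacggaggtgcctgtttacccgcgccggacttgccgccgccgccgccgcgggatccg
Per2: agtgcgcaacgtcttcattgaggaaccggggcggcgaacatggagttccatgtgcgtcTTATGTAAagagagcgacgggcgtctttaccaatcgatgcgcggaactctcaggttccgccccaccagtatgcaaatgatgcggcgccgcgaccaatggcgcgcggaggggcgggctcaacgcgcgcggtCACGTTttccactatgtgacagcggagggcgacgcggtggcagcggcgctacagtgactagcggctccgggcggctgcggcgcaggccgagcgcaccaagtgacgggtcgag
Nr1d1 first start: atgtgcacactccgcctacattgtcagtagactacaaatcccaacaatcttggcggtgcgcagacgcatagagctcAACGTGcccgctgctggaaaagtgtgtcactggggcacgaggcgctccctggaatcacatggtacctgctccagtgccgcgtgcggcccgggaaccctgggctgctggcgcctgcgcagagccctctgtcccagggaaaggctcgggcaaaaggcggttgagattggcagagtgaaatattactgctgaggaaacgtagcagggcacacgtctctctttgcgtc
Nr1d1 second start: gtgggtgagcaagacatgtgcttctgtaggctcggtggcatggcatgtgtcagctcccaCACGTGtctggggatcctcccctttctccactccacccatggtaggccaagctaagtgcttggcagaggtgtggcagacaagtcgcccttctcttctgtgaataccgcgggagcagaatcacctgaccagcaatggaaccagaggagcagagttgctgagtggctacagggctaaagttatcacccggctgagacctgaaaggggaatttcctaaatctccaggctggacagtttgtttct

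Cry2 held an E'-box as well, and the windows of Clock, Per1, Per3, Nr1d2 and Dbp held none of these letters. Over all 33469 windows of the same length, an E-box was found in 6.42%, an E'-box in 4.83%, a D-box in 1.01%, a RORE core in 6.60% and a cyclic AMP element in 1.83%. A match describes letters in a window and no binding was measured.

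Before the groups were compared, the libraries were examined. Total counts were between 68529126 and 79591989 per sample, at which 3 counts correspond to a CPM of 0.0377 to 0.0438 (library-scaled counts, with counting error only). Markers of ventricular muscle were present in every sample. Their summed FPKM (fragments per kilobase of gene length, scaled to the fragments of the library) over 7 genes was between 20260 and 28532 in sham and between 7050 and 14165 in ischemia, lower in every ischemia sample, although 0 of the 7 passed an edgeR adjusted p of 0.05 (1.53% of all tested genes were called lower) and 3 had an unadjusted p under 0.05 (32.4% of all tested genes). Actc1, Myh6 and Ryr2 were lower in every ischemia sample, Myl2, Tnni3 and Pln overlapped between groups, and Myh7 had a log2 fold change of 0.86 (edgeR adjusted p 0.400) with overlapping groups. For the 5 atrial markers the sum was 48344, 215.5 and 39345 across the sham replicates and 9610, 2078 and 1279 across the ischemia replicates, and none was at 0 counts. In ischemia replicates 2 and 3 this sum was nearly all Nppa (2051 and 1251), whereas Myl7, Myl4, Sln and Bmp10 were each lower there than in sham replicate 2. The 8 neutrophil and monocyte markers summed to 111.7 to 197.2 in sham and to 1259, 8400 and 1997 in ischemia, and 7 of the 8 rose at an edgeR adjusted p under 0.05, against 5.18% of all tested genes. All 7 calls were lost when any 1 sham sample or ischemia replicate 3 was left out and with the replicate number as a block, fits in which no gene of the table was called. The 4 fibroblast markers found summed to between 330.5 and 1125 in sham and between 171.6 and 414.0 in ischemia, and the 4 endothelial markers to between 125.0 and 151.0 over all samples. Rows of the Y chromosome held 161 counts in sham replicate 1 against 3218 to 8970 in the other samples, which goes against the description of all rats as male. In tissue of mixed cells, fewer cells of a type and less RNA per cell cannot be told apart. The part of tissue composition in the clock results was not tested.

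The clock genes differed widely in level. Nr1d1 had the highest mean FPKM (27.4 over the 6 samples), followed by Arntl (14.8), Dbp (11.7), Cry2 (10.2), Per1 (9.85), Cry1 (5.96), Nr1d2 (4.89), Per2 (3.34), Clock (1.03) and Per3 (1.02). The sample ranges of each pair of neighbours in this order overlapped. Nr1d1 ranked first in 5 samples and 3 in sham replicate 1. Per1 ranked from 5 to 7 in the sham samples and from 2 to 3 in the ischemia samples. The ratio of the highest to the lowest sample was largest for Per1 (4.30) and Per3 (4.20) and smallest for Cry2 (1.64).

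**Figure D1:**
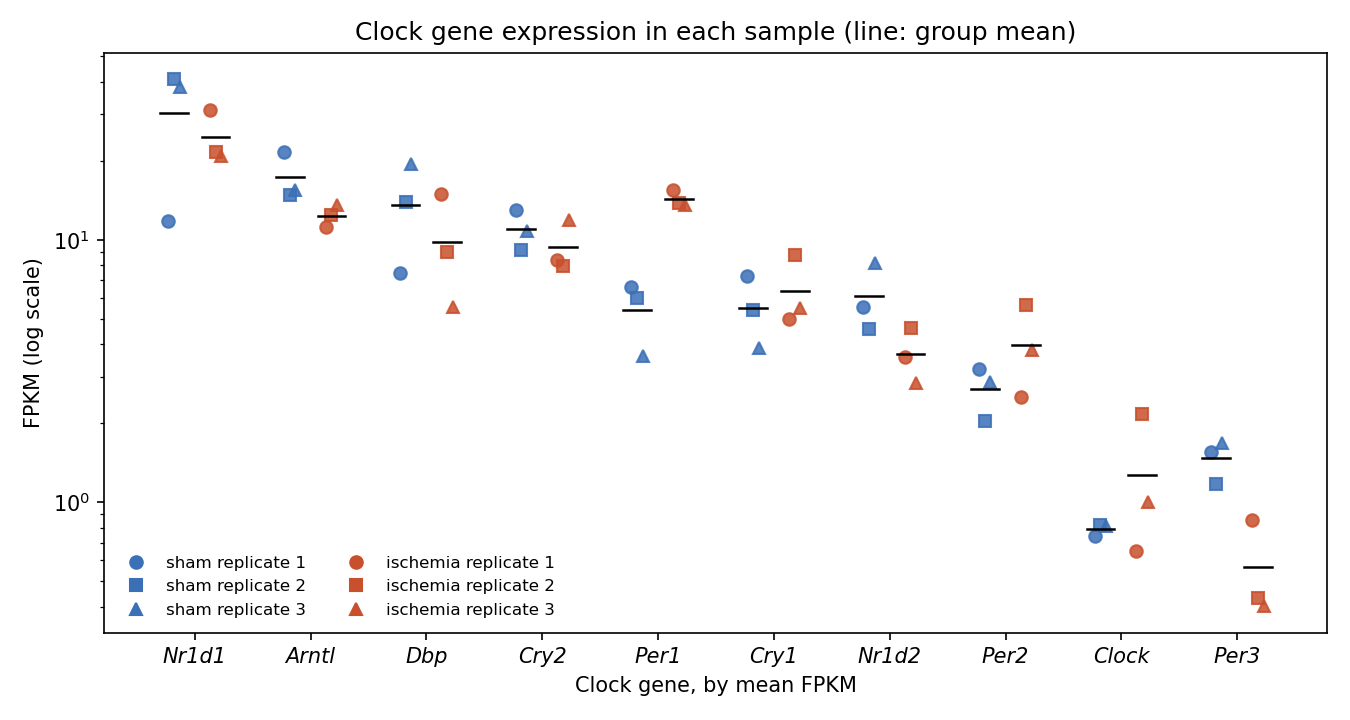
FPKM of the 10 clock genes on a log axis in the 3 sham samples (blue) and 3 ischemia samples (red), with a line at each group mean. Per1 lies higher and Arntl and Per3 lie lower in every ischemia sample than in any sham sample, and sham replicate 1 is far below the other sham samples for Nr1d1.

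Ischemia was then compared with sham over all genes. With the quasi-likelihood test of edgeR, 0 of the 10 clock genes passed an adjusted p of 0.05, where 5.18% of all tested genes were called higher and 1.53% lower. At an unadjusted p under 0.05 there were 4 of 10, namely Per1, Per3, Nr1d2 and Arntl, against 32.4% of all tested genes. In FPKM the groups did not overlap for Per1, which was higher, and for Arntl and Per3, which were lower. Of all tested genes 23.6% lay apart and higher and 15.0% apart and lower. These shares of the clock genes are near those of the whole table. With DESeq2, which called 15.1% of genes higher and 12.6% lower, Per1 was called higher and Arntl, Per3 and Nr1d2 lower. Log2 fold changes were above 0 for 4 genes and below 0 for 6, with a median of -0.36 against -0.0015 over all tested genes.

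Per1, which encodes a repressor of the loop and is a known immediate responder to hormones, was the clock gene with the highest log2 fold change. Its FPKM was 6.60, 6.01 and 3.61 across sham replicates 1 to 3, and 15.5, 13.8 and 13.5 across ischemia replicates 1 to 3. Every ischemia sample was above the highest sham sample, and the ischemia samples were close to each other. The group means were 5.41 ± 1.58 (SD, n = 3) and 14.3 ± 1.09 (SD, n = 3). On the log2 scale the difference was 1.29 ± 0.30 (SE), or 2.45-fold, and the edgeR adjusted p of 0.0515 was just above the threshold, so the gene was not called. The exact permutation p was 0.1, which is the smallest that 3 samples against 3 allow. Over the alternatives the log2 fold change stayed between 1.03 and 1.5, and the adjusted p was lowest with DESeq2 (0.00216) and highest in edgeR without sham replicate 1 (0.170). It passed in 6 of 17 alternatives, among them limma on log2(FPKM + 0.1) with an adjusted p of 0.0331.

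Per3 had the lowest log2 fold change of the 10 genes, opposite in sign to its paralog Per1. Its FPKM was 1.56, 1.17 and 1.69 in sham and 0.858, 0.432 and 0.401 in the ischemia group. The groups were apart, with ischemia replicate 1 nearest to sham. Sham libraries held 770, 615 and 795 counts of Per3, and ischemia libraries 462, 212 and 185, so the gene was low but well above the depth limit. Per3 had a log2 fold change of -1.44 ± 0.37 (SE), 2.72-fold lower, at an edgeR adjusted p of 0.0632. Its exact permutation p was 0.1. The value ranged from -1.91 to -0.67 over the alternatives and passed with DESeq2 (adjusted p 0.00206) and in edgeR without ischemia replicate 1 (-1.91, adjusted p 0.0173), a fit that called 1115 of all genes lower against 214 with all samples. The value nearest to 0 came from limma on log2(FPKM + 1), where the added 1 is of the size of the FPKM itself. With 0.01 added it was -1.44.

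Per2, the third repressor of this family, differed from both. Its FPKM was 3.21, 2.04 and 2.88 in sham and 2.52, 5.62 and 3.79 in ischemia. Ischemia replicate 2 was the highest and sham replicate 2 the lowest, and the groups overlapped. Its log2 fold change of 0.47 ± 0.29 (SE) had an edgeR adjusted p of 0.297, and it was 0.20 without ischemia replicate 2 (adjusted p 0.653) and 0.69 without ischemia replicate 1 (adjusted p 0.0834). Because Per1 and Per3 differed in opposite directions, their balance inside each library was examined, a comparison chosen after their values were seen. Log2 FPKM of Per1 minus Per3 was 2.08, 2.36 and 1.10 in sham and 4.18, 4.999 and 5.07 in ischemia. This difference needs no scaling between libraries, and the groups were apart by more than the spread within either.

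**Figure D2:**
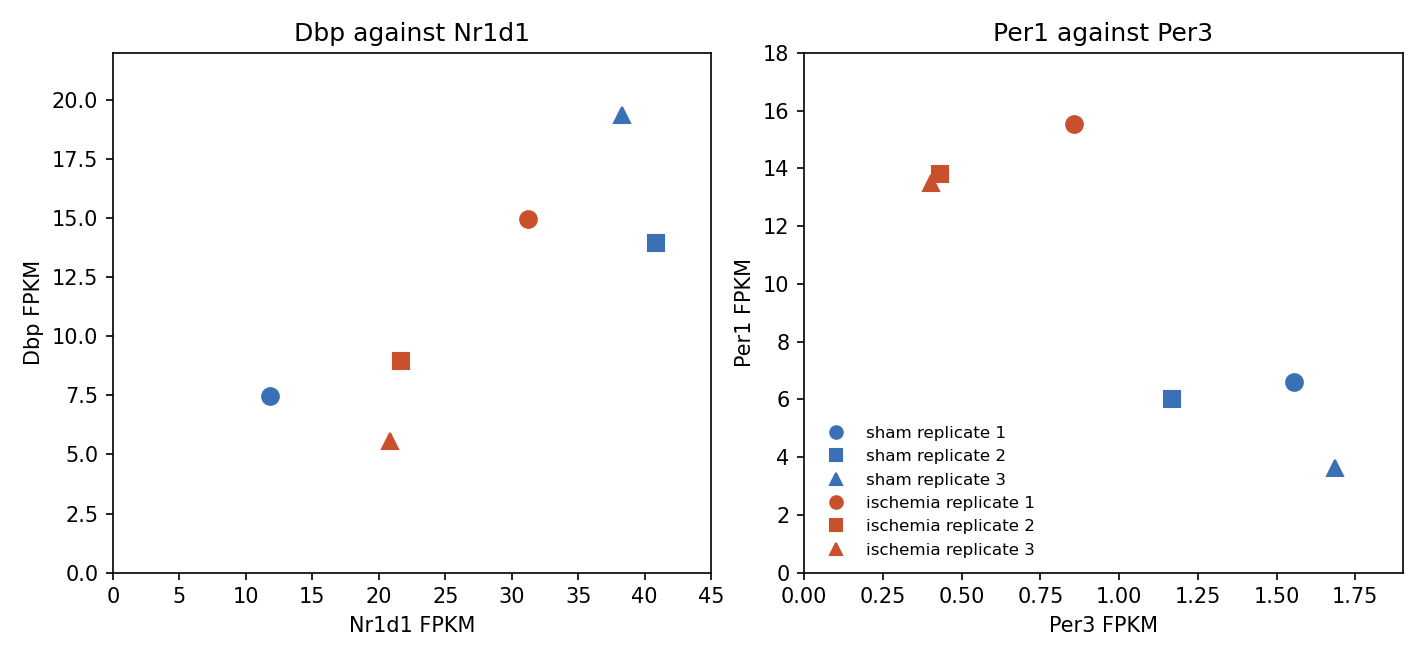
Dbp against Nr1d1 (left) and Per1 against Per3 (right), in FPKM, with 1 point per sample and both axes from 0. On the left sham replicate 1 has the lowest Nr1d1 (11.8) and, after ischemia replicate 3, the lowest Dbp (7.47), and on the right the 3 ischemia samples lie at high Per1 and low Per3.

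The CRY proteins bind PER and complete the repressor. Cry1 had FPKM values of 7.28, 5.40 and 3.86 in sham and 4.97, 8.72 and 5.52 in the ischemia group. The samples of the groups were interleaved, and the log2 fold change was 0.10 ± 0.32 (SE; edgeR adjusted p 0.840). Its sign turned without sham replicate 3 (-0.13) and without ischemia replicate 2 (-0.12). Cry2 was at 12.99, 9.13 and 10.8 in sham and 8.38, 7.93 and 11.9 in ischemia. Its groups overlapped too, with ischemia replicate 3 above 2 of the sham samples, and the log2 fold change was -0.29 ± 0.24 (SE; edgeR adjusted p 0.422). It was -0.14 without ischemia replicate 2 and -0.55 without ischemia replicate 3.

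Of the activators, Arntl was lower in all ischemia samples, by a small margin. Its FPKM was 21.6, 14.8 and 15.4 in sham and 11.2, 12.4 and 13.5 in ischemia. Sham replicate 1 was the highest, and the gap between the lowest sham and the highest ischemia sample was smaller than the spread within sham. Arntl had a log2 fold change of -0.56 ± 0.20 (SE), 1.48-fold lower, at an edgeR adjusted p of 0.116. The smallest exact permutation p, 0.1, was reached. Over the alternatives it stayed between -0.68 and -0.43 and passed with DESeq2 alone (adjusted p 0.0437). Clock, whose product is the partner of BMAL1, was at 0.741, 0.822 and 0.815 FPKM in sham and 0.653, 2.17 and 1.01 in ischemia. Ischemia replicate 1 was below every sham sample and ischemia replicate 2 far above, and the log2 fold change was 0.55 ± 0.43 (SE; edgeR adjusted p 0.390). The log2 fold change of Clock was 0.019 without ischemia replicate 2 and 0.85 without ischemia replicate 1.

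The REV-ERB gene Nr1d1, the repressor of Arntl, separated 1 sham sample from the others. Its FPKM was 11.8 in sham replicate 1 against 40.8 and 38.3 in the other sham samples, and 31.2, 21.7 and 20.8 in ischemia. All 3 ischemia samples lay between the sham samples. Nr1d1 had a log2 fold change of -0.43 ± 0.51 (SE; edgeR adjusted p 0.577), and it was -0.84 without sham replicate 1 (adjusted p 0.198), -0.66 without ischemia replicate 1 (adjusted p 0.432) and -0.0075 without sham replicate 2 (adjusted p 0.994). In the deposited coordinates 1059 of the 6941 bases spanned by Nr1d1 also belong to Thra on the opposite strand, a thyroid hormone receptor gene. Thra had 47.0, 53.7 and 55.3 FPKM in sham and 30.6, 10.3 and 19.6 in the ischemia group. The kit keeps strand but the counting setting is not given, so without it reads of the 2 genes in that stretch cannot be told apart.

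Nr1d2, the second REV-ERB gene, had FPKM values of 5.54, 4.57 and 8.17 in sham and 3.57, 4.62 and 2.84 in ischemia. In FPKM only ischemia replicate 2 reached above a sham sample. On log2 CPM with the trimmed-mean scaling of edgeR the groups were apart. There Nr1d2 was at 4.68, 4.71 and 5.22 in sham and 4.07, 4.32 and 3.80 in ischemia. Nr1d2 had a log2 fold change of -0.81 ± 0.24 (SE), 1.75-fold lower, at an edgeR adjusted p of 0.0828, and it was -0.84 with DESeq2 (adjusted p 0.0112). Dbp, an output switched on by BMAL1 and CLOCK, was at 7.47, 14.0 and 19.4 in sham and 14.97, 8.97 and 5.56 in the ischemia group. The lowest sham sample was again replicate 1, the groups overlapped, and the log2 fold change was -0.57 ± 0.48 (SE; edgeR adjusted p 0.431). Without sham replicate 1 it was -0.88 (adjusted p 0.275), and without ischemia replicate 1 it was -1.04 (adjusted p 0.152). Without sham replicate 3 it was -0.33 (adjusted p 0.718), and without ischemia replicate 3 it was -0.31 (adjusted p 0.720).

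**Figure D3:**
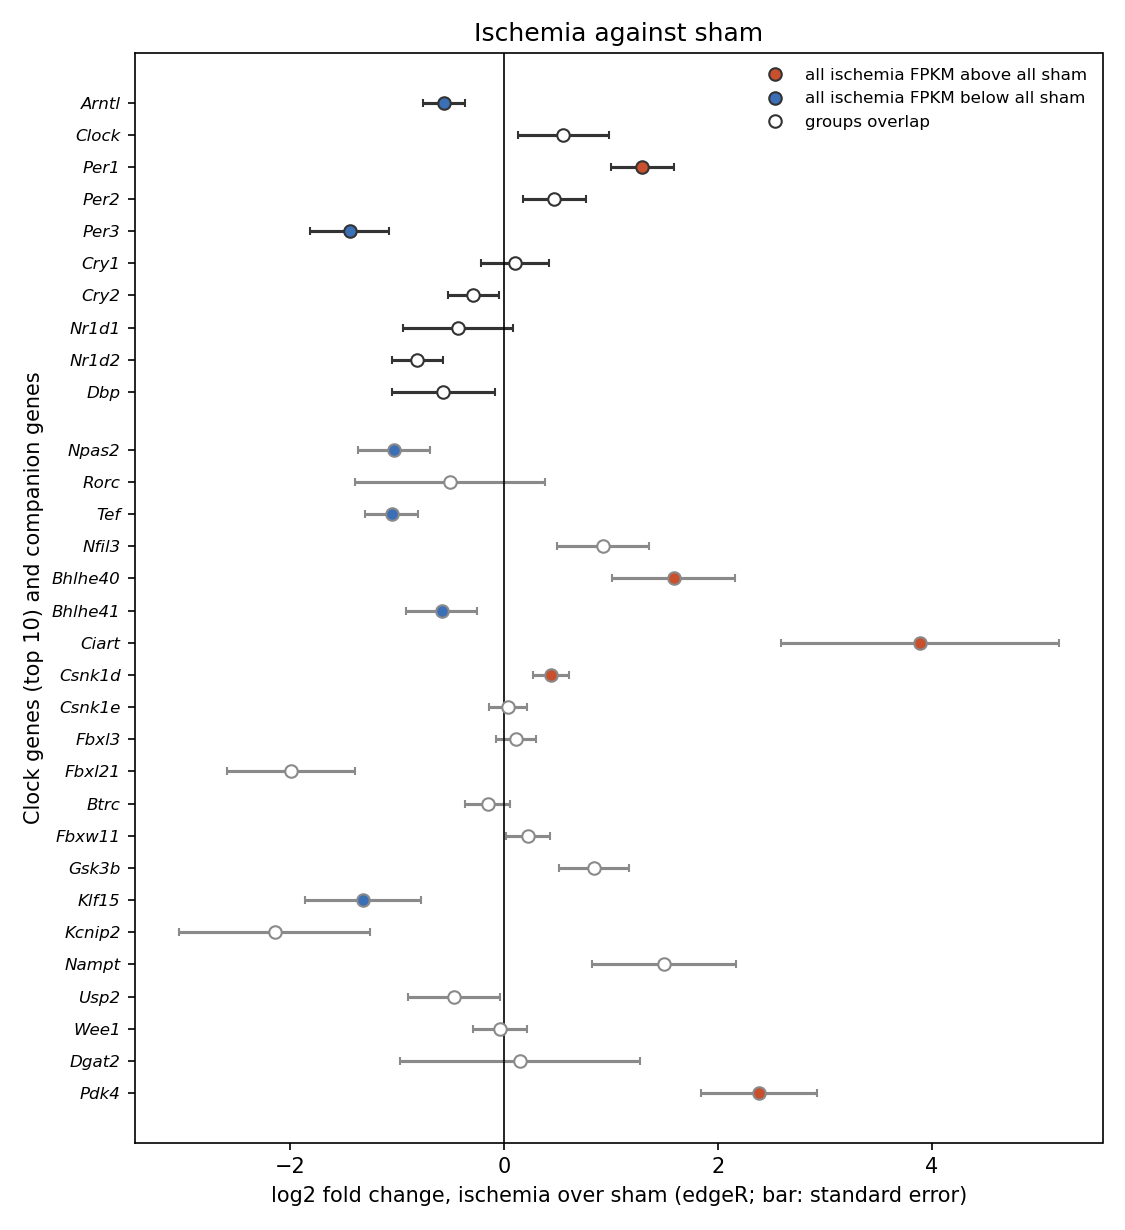
Log2 fold change of ischemia over sham with its standard error from edgeR for the 10 clock genes and 21 tested companion genes. Filled points mark genes whose groups do not overlap in FPKM, and no gene shown passed an adjusted p of 0.05.

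Clock phase was then examined inside each library, as the difference of log2 FPKM between the genes of a pair. No test was made on these differences. Arntl minus Nr1d1 was 0.87 in sham replicate 1, -1.46 and -1.31 in the others of that group, and -1.48, -0.81 and -0.63 in the 3 ischemia replicates. Sham replicate 1 alone had more Arntl than Nr1d1, and the range within sham (2.33) was larger than the difference of the group means (-0.33). Arntl minus Dbp was 1.53, 0.089 and -0.33 in sham and -0.42, 0.47 and 1.28 in ischemia. Here ischemia replicate 3 stood beside sham replicate 1, ischemia replicate 1 beside sham replicate 3, and the means were nearly equal (0.43 and 0.44). For these 2 pairs the spread within each group was larger than the difference between the groups.

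The pairs with Per2 gave another order. Arntl minus Per2 was 2.75, 2.87 and 2.42 in sham and 2.15, 1.14 and 1.83 in ischemia, lower in every ischemia sample, with a difference of the means of -0.97. Cry1 minus Per2, a pair of repressors that peak at different times of the day, was 1.18, 1.41 and 0.42 in sham and 0.98, 0.63 and 0.54 in ischemia, and the groups overlapped. Per1 minus Dbp, a pair of E-box targets chosen after their values were seen, was -0.18, -1.21 and -2.42 in sham and 0.052, 0.62 and 1.28 in ischemia, with every ischemia sample above every sham sample. Both pairs with Per1 were picked once Per1 was seen to lie apart, so their separation restates the values of Per1 and says nothing further of phase. Of the other 4 pairs, Arntl minus Per2 alone lay apart between the groups. Arntl itself was lower in every ischemia sample, so this separation in part restates the values of Arntl. The share of all gene pairs that lie apart was not computed. The hour of collection is not given, so group and time of day cannot be told apart for any clock gene.

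**Figure D4:**
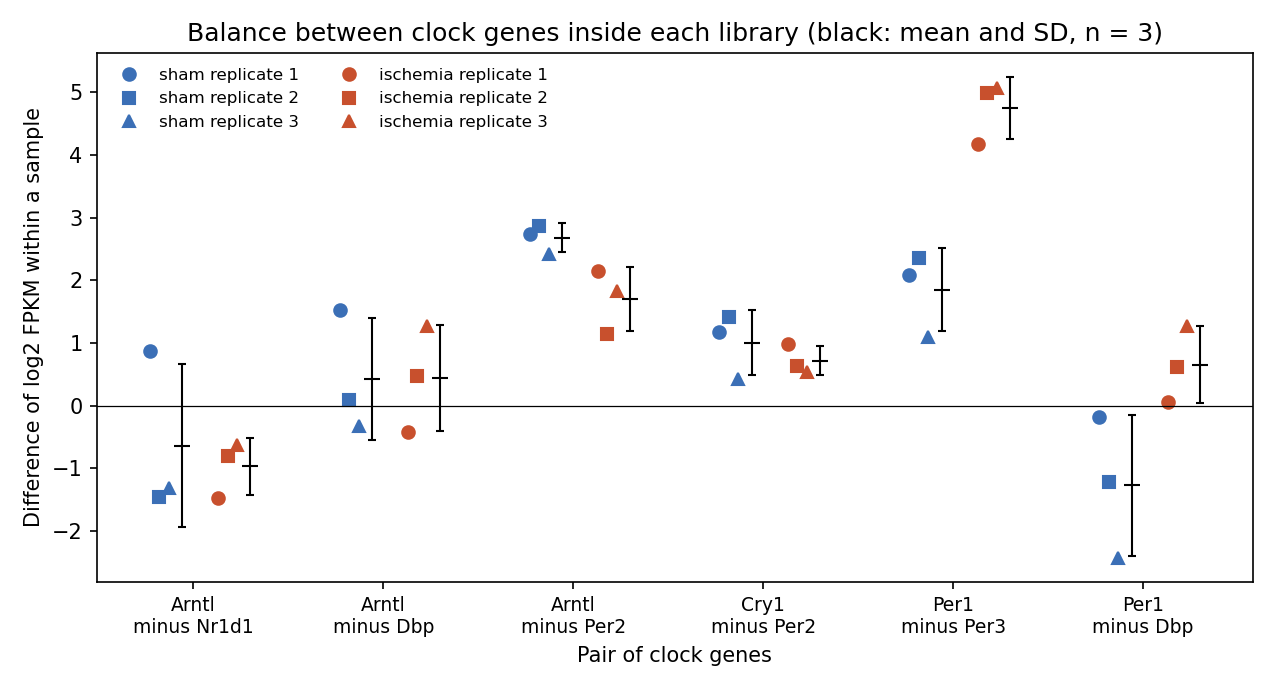
Difference of log2 FPKM between the members of 6 gene pairs in each sample, with the mean and SD of each group in black. The groups overlap for Arntl minus Nr1d1, Arntl minus Dbp and Cry1 minus Per2 and lie apart for the other 3 pairs.

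Sham replicate 1, which stood apart in Nr1d1 and in Y-linked counts, was left out in turn. Without it, the log2 fold changes were 1.38 for Per1, -1.44 for Per3, -0.43 for Arntl and -0.91 for Nr1d2, and the edgeR adjusted p was 0.170, 0.181, 0.287 and 0.179 in that order. Signs of all 10 genes were as with all samples. No gene of the 13964 was called by edgeR in that fit, in which 3090 reached an unadjusted p under 0.05.

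The companion genes of the clock were listed by role, and 21 of 25 could be tested. With edgeR 0 of the 21 passed an adjusted p of 0.05, while 9 had an unadjusted p under 0.05 (32.4% of all tested genes), and DESeq2 called 3 higher and 4 lower (15.1% and 12.6% of all tested genes). Rora, Rorb and Hlf were below the expression filter, with Rorb at 0 counts in every sample, and Tcap was not analysed here. The median log2 fold change of the 21 was 0.034, with 11 above 0 and 10 below. In 4 genes all ischemia samples were higher and in 4 all were lower, near the shares of the whole table given for the clock genes.

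Among activators and partners, Npas2, a relative of Clock that can replace it, was at 4.98, 5.14 and 7.41 FPKM in sham and 4.31, 2.11 and 2.60 in ischemia. All ischemia samples were lower, and the log2 fold change was -1.03 ± 0.34 (SE; edgeR adjusted p 0.101). Tef, which encodes a D-box factor of the same family as Dbp, was at 13.8, 14.05 and 13.7 in sham and 8.97, 5.63 and 6.75 in the ischemia group. In FPKM the sham samples were almost equal and the groups apart. On counts with trimmed-mean scaling the log2 fold change of Tef was -1.05 ± 0.25 (SE; edgeR adjusted p 0.0535). Nfil3, the repressor that competes for D-boxes, was at 14.5, 10.5 and 7.43 in sham and 12.4, 36.8 and 17.8 in ischemia, with overlapping groups and a log2 fold change of 0.92 ± 0.43 (SE; edgeR adjusted p 0.189).

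Further repressors of BMAL1 had log2 fold changes of both signs. Ciart was at 0.0852, 0.0534 and 0.679 FPKM in sham and 1.26, 10.5 and 1.21 in ischemia, and ischemia replicate 2 carried most of the difference. Its log2 fold change was 3.89 ± 1.30 (SE; edgeR adjusted p 0.105), the highest of the companion genes. Bhlhe40 was at 7.22, 17.0 and 15.9 in sham and 19.0, 76.8 and 38.3 in ischemia (1.59 ± 0.57, SE; edgeR adjusted p 0.121), with sham replicate 1 again the lowest. Bhlhe41 had a log2 fold change of -0.58 (edgeR adjusted p 0.257). Of the kinases and ubiquitin ligases that act on PER and CRY, values ran from -1.99 for Fbxl21 (edgeR adjusted p 0.0859) to 0.84 for Gsk3b (0.137).

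Outputs of the heart clock showed both signs. Pdk4, which restrains glucose oxidation, was at 20.7, 12.2 and 11.7 FPKM in sham and 85.6, 32.4 and 121.9 in ischemia, apart and higher (2.38 ± 0.54, SE; edgeR adjusted p 0.0511). Klf15, a metabolic regulator, was at 19.9, 24.3 and 17.47 in sham and 13.9, 3.31 and 9.02 in ischemia, apart and lower (-1.32 ± 0.54, SE; edgeR adjusted p 0.153). Kcnip2, a potassium channel subunit that Klf15 controls, had the lowest value of the companion genes (-2.15 ± 0.89, SE; edgeR adjusted p 0.154). Its FPKM was 28.5, 145.8 and 41.0 in sham and 35.9, 9.95 and 9.80 in ischemia, so sham replicate 2 was far above the others and the groups overlapped.

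Because Per1 answers to hormones and to acute signals, lists of such genes were set beside it. Of 8 glucocorticoid-responsive genes 4 rose and 0 fell in edgeR, where 5.18% of all tested genes were called higher and 1.53% lower. They were Fkbp5 (3.01), Cebpd (2.75), Ddit4 (1.48) and Sgk1 (1.33 on the log2 scale), with adjusted p-values of 0.0272, 0.0246, 0.0327 and 0.0488. Fkbp5, which encodes a chaperone partner of the glucocorticoid receptor, was at 4.58, 4.75 and 4.04 FPKM in sham and 23.05, 37.5 and 54.7 in ischemia. Tsc22d3, another target of that receptor, had the lowest value of the list (-0.23, edgeR adjusted p 0.376). The log2 fold change was above 0 for 6 of the 8 genes and below 0 for 2. Of 9 immediate early genes all had log2 fold changes above 0 and 1 rose against the same 5.18%, Junb (2.63, edgeR adjusted p 0.0291), while Dusp1 had the lowest value (0.55, edgeR adjusted p 0.372). The groups were apart and higher in ischemia for 4 of the 9, against 23.6% of all tested genes. Ischemia replicate 2, which also had the highest sum of neutrophil and monocyte markers, was the highest sample for all 9, and for Crem, Sik1, Egr1 and Dusp1 the other ischemia samples lay within the range of sham. When any 1 sham sample, or ischemia replicate 3, was left out, or the replicate number was a block, edgeR called no gene of the table, and these 5 calls were lost there. The part of these signals in the Per1 values was not tested.

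Genes whose log2 CPM ran most like Arntl and Dbp over the 6 samples were picked by Pearson r out of 13954 other tested genes. For Arntl they were Setd3 (r = 0.993), AABR07071208 (0.981) and Rprd2 (0.979), and for Dbp they were Inmt (0.991), Zfp703 (0.964) and Sox15 (0.958). The points share 2 groups and the same 6 libraries, and the values are a description with no test. Inmt was at 0.206, 1.12 and 3.09 FPKM in sham and 1.31, 0.316 and 0.0929 in ischemia, which is the order of the samples in Dbp.

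**Figure D5:**
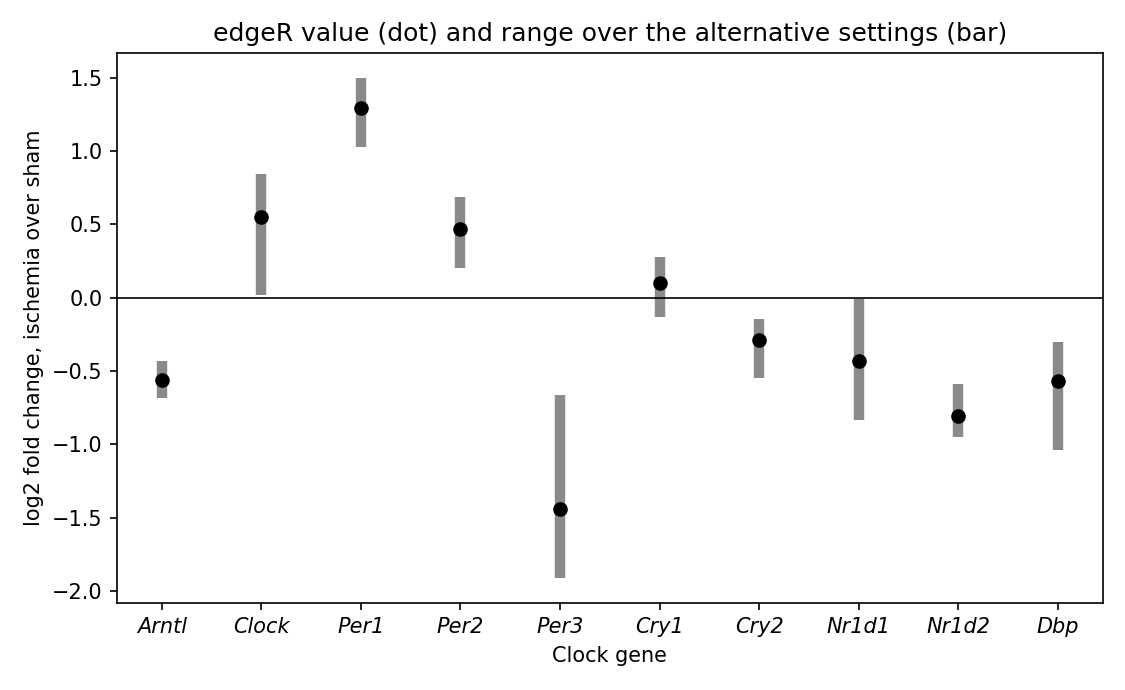
Log2 fold change of ischemia over sham for each clock gene from edgeR (dot) and its range over the alternative scalings, filters, tests and left-out samples (bar). The range crosses 0 for Cry1 alone and stays above 1 for Per1, while that of Nr1d1 reaches -0.0075.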

How the data were processed

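Total RNA of myocardium had been sequenced by the authors from a strand-aware kit. STAR and HTSeq are named in the submitters' processing notes, without versions, and the genome build is not given in the sources used here. The table deposited by the authors held raw counts, which were not normalized, and FPKM, computed by the authors with 0.0001 for genes without counts. All 12 columns of values were used. Testing was limited to genes whose FPKM averaged 0.5 or more, by the quasi-likelihood test of edgeR on counts scaled by the trimmed mean of M-values, comparing ischemia with sham and using no covariate. All p-values are two-sided, with Benjamini-Hochberg adjustment over all tested genes (threshold 0.05). Standard errors came from the F statistic. Single genes were compared on log2 FPKM with two-sided exact permutation tests. Nothing says more of the replicates than their numbers, so p-values measure the spread between these samples. The clock genes, companion genes, stimulus genes and markers were chosen with earlier results of these data known. Named were the 10 clock genes, the ends of each companion role and stimulus list, called genes, and the 3 genes most like Arntl and Dbp. Bhlhe40, Klf15 and 2 gene pairs with Per1 were added after their values were seen. Alternatives were DESeq2, limma on log2(FPKM + 0.1, 0.01 or 1), 3 other scalings, 2 other filters, removal of the mitochondrial genome, the replicate number as a block and each sample left out. The fits were run on simulated data, where DESeq2 made more false calls than edgeR and limma, and edgeR and limma missed most of the changed genes and DESeq2 fewer. Software was DESeq2 1.42.0, edgeR 4.0.16 and limma 3.58.1 under R 4.3.3, and scipy 1.17.1 and matplotlib 3.10.9 under Python 3.11.15.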

Additional observations from a re-analysis of the deposited data

How the results depend on the processing

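The number of clock genes past an adjusted p of 0.05 was 0 in edgeR with all samples, trimmed-mean scaling and the filter at 0.5, and it changed under some other tests, scalings, filters and left-out samples. DESeq2 called 1 higher and 3 lower clock genes and 3 higher and 4 lower companion genes. Limma on log2(FPKM + 0.1), which called 850 of all 13964 genes higher and 262 lower, called 1 higher clock gene and 1 higher and 1 lower companion gene, and with pseudocounts of 0.01 and 1 it called 1 higher clock gene and 1 higher companion gene each (781 and 657 higher of all genes). Equal totals (509 higher and 83 lower of all genes) gave 1 higher clock gene, and a mean FPKM of at least 5, which left 6 clock genes to test and called 725 of 8156 genes higher and 291 lower, gave 1 higher clock gene and 1 higher and 1 lower companion gene. Median-ratio and upper-quartile scaling, no filter and removal of the mitochondrial genome gave 0 in each count. Deviations from the group means correlated at -0.0561, -0.0940 and -0.196 between same-numbered samples. Between differently numbered samples they correlated at -0.0462 to 0.199. These values cannot show whether same-numbered samples shared a day or a batch. With the replicate number as a block edgeR called 0 of all 13964 genes, among them 0 clock genes and 0 companion genes, and 3349 had an unadjusted p under 0.05. The log2 fold change of Per1 was 1.35 and that of Per3 -1.54 with the block. Over the 6 fits that each left out a sample, lower clock genes ranged from 0 to 1, higher companion genes from 0 to 2 and lower companion genes from 0 to 2, and 0 clock genes were higher. The highest counts came without ischemia replicate 1, where 1490 of all genes were called higher and 1115 lower against 723 and 214 with all samples. Cry1 ranged from -0.134 to 0.278 over these fits, and the other 9 clock genes kept their sign under every alternative that tested them. With limma on log2(FPKM + 0.1) Nr1d1 was at -0.132 and Cry1 at 0.214, against -0.432 and 0.103 in edgeR. The within-sample differences moved by less than the spread between samples when computed from counts. The cause of these changes was not tested. With 3 samples a group the exact permutation test cannot go below 0.1.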
